A study of Mus musculus with 2 samples.

Results

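The genes described here follow skeletal muscle cells from progenitor to fusing myocyte and fibre: *Pax7*, *Myf5*, *Myod1*, *Myog*, *Mymk*, *Des*, *Chodl* and *Actc1*. These 8 of the 32285 genes in the deposited matrices were chosen by symbol, and each matched a single row. They were measured with the 10× Chromium 3′ kit in single cells sorted for tdTomato. The cells came from Clec3b.creERT2; Ai14.R26.tdTomato mice, in which tamoxifen-activated Cre, made from the *Clec3b* locus, permanently switches on tdTomato. The paper reports that haematopoietic and endothelial cells in its data lacked meaningful tdTomato and regards them as sorting artifacts. It also states that myogenic-lineage cells do not express *Clec3b*. The analysed cells can therefore not all be taken as labelled. Tamoxifen was given 2 weeks before a femoral fracture, which the study's methods place at 6 weeks of age in the right leg, and tissue was taken 3 weeks after it. Femoral diaphyses with the muscle around them gave the intact library and fracture calluses gave the callus library, each from the pooled tissue of 3 littermates labelled male. Both libraries carry the same alleles and the same tamoxifen, and the intact tissue was dissected with muscle, so tissue taken and fracture state cannot be told apart.

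Muscle stem cells, also called satellite cells, lie beside the fibres and are marked by the transcription factor *Pax7*. Satellite cells and their progeny make *Myf5* and *Myod1*, differentiating cells switch on *Myog*, and fusion into fibres needs the membrane protein myomaker, the product of *Mymk*. *Des* encodes the intermediate filament desmin, *Actc1* the cardiac alpha-actin that immature skeletal muscle also makes, and *Chodl* the membrane protein chondrolectin.

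Barcodes with at least 500 detected genes were analysed: 1214 of 1872 in the intact library, with a median of 4904 unique molecular identifiers (UMIs, 1 for each captured molecule), and 3365 of 3987 in the callus library, with a median of 6732. They held 7528672 and 34525670 UMIs. The RNA *Xist*, made from a silenced X chromosome, was found in 468 of 599 (78.1%) intact and 1869 of 2079 (89.9%) callus cells with at least 5000 UMIs, and Y-linked genes held 1 and 0 UMIs, although the mice are labelled male. *Clec3b* itself was detected in 532 of the 4579 cells, 507 of them among the 530 cells of fibroblast-like clusters. A single barcode occurred in both libraries and held no UMI of the 8 genes. With 1 library per condition there is no test between conditions. Intervals are exact 95% intervals that cover counting error only.

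On GRCm38, in the GENCODE M21 annotation, the protein-coding genes lie as follows. *Pax7* (ENSMUSG00000028736) is at chr4:139737062-139833528, *Myf5* (ENSMUSG00000000435) at chr10:107482908-107486134, *Mymk* (ENSMUSG00000009214) at chr2:27061636-27072179 and *Actc1* (ENSMUSG00000068614) at chr2:114047282-114053548, all on the minus strand. *Myod1* (ENSMUSG00000009471) is at chr7:46376474-46379099, *Myog* (ENSMUSG00000026459) at chr1:134289989-134292548, *Des* (ENSMUSG00000026208) at chr1:75360329-75368579 and *Chodl* (ENSMUSG00000022860) at chr16:78930948-78951733, on the plus strand.

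The start regions of 3 genes are shown because no cell held *Chodl* together with *Myog* or *Actc1*, and MyoD-family factors bind the E-box CANNTG. RefSeq windows of 300 bases, 250 before to 50 after the start on GRCm38.p6, matched 6 of the 8 genes, and *Myod1* and *Mymk* have no entry. The windows of *Myog* (chr1:134289754-134290053, plus strand) and *Chodl* (chr16:78930698-78930997, plus strand) are given with each CANNTG in capitals. The window of *Actc1* (chr2:114052826-114053125, minus strand) has CANNTG and the CArG box, the site of serum response factor, in capitals. The RefSeq starts of *Actc1* and *Myog* lie inside the GENCODE genes, downstream of their first bases. Distances below are from the RefSeq start.
Myog: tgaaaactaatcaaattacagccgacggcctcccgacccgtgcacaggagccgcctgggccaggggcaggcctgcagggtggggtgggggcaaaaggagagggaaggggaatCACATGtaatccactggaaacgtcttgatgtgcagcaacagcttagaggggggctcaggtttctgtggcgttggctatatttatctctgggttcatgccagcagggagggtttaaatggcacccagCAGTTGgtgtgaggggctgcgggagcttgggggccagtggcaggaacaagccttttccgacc
Chodl: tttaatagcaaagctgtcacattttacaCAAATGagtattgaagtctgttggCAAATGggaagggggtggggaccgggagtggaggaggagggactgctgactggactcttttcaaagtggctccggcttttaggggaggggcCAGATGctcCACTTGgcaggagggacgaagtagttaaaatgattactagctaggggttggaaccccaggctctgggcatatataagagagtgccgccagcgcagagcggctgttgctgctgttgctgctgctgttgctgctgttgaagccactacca
Actc1: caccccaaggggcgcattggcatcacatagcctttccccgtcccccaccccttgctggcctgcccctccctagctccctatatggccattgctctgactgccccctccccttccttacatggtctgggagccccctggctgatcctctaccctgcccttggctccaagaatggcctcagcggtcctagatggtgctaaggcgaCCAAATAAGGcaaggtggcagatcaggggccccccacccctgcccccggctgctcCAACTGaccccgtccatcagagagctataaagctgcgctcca
CANNTG occurred 2 times in the *Myog* window, 138 and 12 bases before the start, 4 times in that of *Chodl* and 2 times in that of *Des*. It occurred 1 time in that of *Actc1*, 8 bases after the start. It was not in the windows of *Pax7* and *Myf5*. Of all 32851 windows, 72.3% hold it, so its presence is common. CAGCTG, which is a CANNTG, was in 1 of the 6 windows, that of *Des*, and in 16.3% of all windows. The CArG box was in the *Actc1* window alone among the 6 and in 1.63% of all. TATAAA was in 2 of the 6, 20 bases after the start in *Myf5* and 33 after it in *Actc1*, and in 13.6% of all. Both strands were searched, and a match is a description of the letters only.

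Relative to depth, all 8 genes were lower in the callus library, and *Pax7*, *Myf5*, *Myog*, *Mymk* and *Chodl*, 5 of the 8, were at least 2-fold lower, with 0 at least 2-fold higher. Of the 14840 genes with at least 20 UMIs over both libraries, 13.5% were at least 2-fold lower and 8.81% at least 2-fold higher. The median log2 ratio of callus over intact was −2.35 for the 8 genes and 0.03 for all genes tested. Depth of the analysed cells was higher in the callus library, as given above. Cell make-up differed too, with 7887566 callus and 214121 intact UMIs in haematopoietic progenitor-like cells. These ratios are over all analysed cells, so level per cell and cell make-up cannot be told apart in them.

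The progenitor genes *Pax7* and *Myf5* differed most. *Pax7* had 120 UMIs in 23 intact cells, or 15.9 UMIs per 1000000 UMIs of the analysed cells (CPM, 13.2 to 19.1). It had 80 in 17 callus cells, or 2.32 CPM (1.84 to 2.88). *Myf5* had 62 UMIs in 20 intact cells, at 8.24 CPM (6.31 to 10.6), and 33 in 11 callus cells, at 0.956 CPM (0.658 to 1.34). A carrier held a median of 5 *Pax7* UMIs in either library, and 3 intact and 2 callus *Myf5* UMIs. The intervals of the libraries do not overlap for either gene, and the intact level was 6.88 and 8.62 times that of the callus. *Myod1*, which encodes MyoD, had 10 UMIs in 7 intact cells, at 1.33 CPM (0.637 to 2.44), and 27 in 16 callus cells, at 0.782 CPM (0.515 to 1.14). These intervals overlap, so a difference in *Myod1* was not detectable at this depth.

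The differentiation and fusion genes were also lower in the callus library, but on a handful of cells. *Myog* had 122 UMIs in 4 intact cells, at 16.2 CPM (13.5 to 19.3), and 87 in 11 callus cells, at 2.52 CPM (2.02 to 3.11). *Mymk* had 23 UMIs in 3 intact cells, at 3.05 CPM (1.94 to 4.58), and 24 in 3 callus cells, at 0.695 CPM (0.445 to 1.03). With the richest cell of each library left out, both genes together went from 19.3 to 3.46 CPM in the intact library and from 3.22 to 0.811 CPM in the callus library. *Mymk* alone was then left with 3 UMIs in each library, with intervals that overlap. Without the cells of highest doublet score *Myog* and *Mymk* together were at 0.681 and 0.814 CPM, with overlapping intervals and the intact value no longer the higher. The number of genes at least 2-fold lower then fell from 5 to 3. This filter removes the 3 cells that hold 180 of the 209 *Myog* and 43 of the 47 *Mymk* UMIs. The doublet caller called 0.131% of cells and was judged not to have worked, so the filter does not show which cells are doublets.

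*Chodl* was lower in the callus library by a factor like that of *Pax7*, and *Des* and *Actc1* by smaller ones. *Chodl* had 132 UMIs in 24 intact cells, at 17.5 CPM (14.7 to 20.8), and 102 in 20 callus cells, at 2.95 CPM (2.41 to 3.59). *Des* had 714 UMIs in 117 intact cells, at 94.8 CPM (88.0 to 102), and 1718 in 359 callus cells, at 49.8 CPM (47.4 to 52.2). *Actc1* had 123 UMIs in 29 intact cells, at 16.3 CPM (13.6 to 19.5), and 374 in 103 callus cells, at 10.8 CPM (9.76 to 12.0). The intact level was 5.93, 1.91 and 1.51 times that of the callus for *Chodl*, *Des* and *Actc1*. The richest intact cell held 50 of the 123 *Actc1* UMIs, and without the richest cell of each library *Actc1* was at 9.72 (7.62 to 12.2) and 9.22 CPM (8.23 to 10.3), so the difference was no longer detectable.

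**Figure D1:**
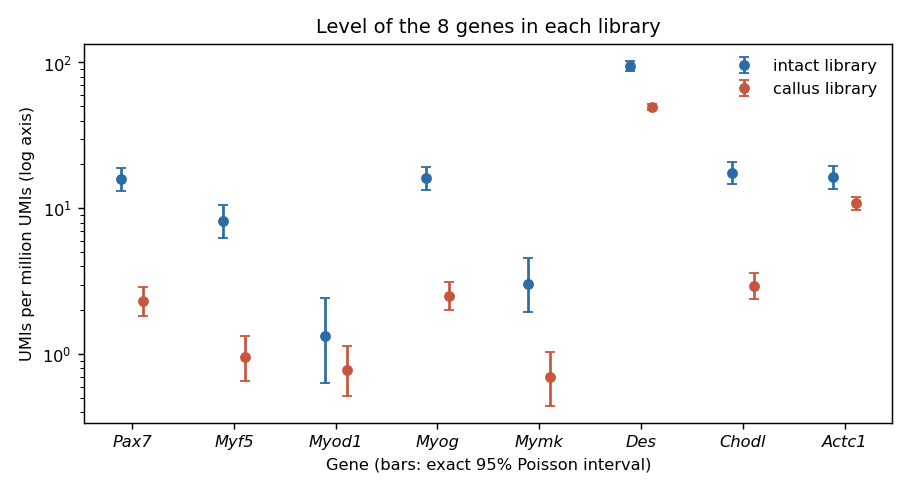
Level of each gene in the intact (blue) and callus (red) libraries, in UMIs per 1000000 UMIs on a log axis, with exact 95% Poisson intervals. Each intact point lies above its callus point, and only the intervals of *Myod1* overlap.

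Thinning every cell to 2000 UMIs, which leaves out 117 intact and 307 callus cells with fewer, kept the order for the progenitor genes. At least 1 UMI of *Pax7*, *Myf5* or *Myod1* was in 26 of 1097 intact cells, or 2.37% (1.55 to 3.45), and in 13 of 3058 callus cells, or 0.425% (0.227 to 0.726). Unthinned, the shares were 2.55% and 0.862%. B-lineage-like cells, which should lack these genes, held them in 0 of 254 intact and 0 of 588 callus thinned cells, which allows shares of up to 1.18% and 0.510%, at median depths of 2872.5 and 3307.5 UMIs. The callus share is below the limit that this control allows, so the share alone does not separate it from background. Unthinned carriers of any of these genes held a median of 6 of their UMIs in the intact and 1 in the callus library. Of the 29 unthinned callus carriers, 15 held 1 UMI. Myofibre-like cells made up 11 of these 29 and 6 of the 31 intact carriers, so the medians mix fibre cells with other carriers. After thinning they made up 5 of the 13 callus and 4 of the 26 intact carriers. For *Pax7* alone the median was 5 in either library.

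For *Myog* or *Mymk* the thinned shares were 0.273% (0.0564 to 0.797) and 0.262% (0.113 to 0.515), which are not told apart, and 0.412% and 0.357% unthinned. B-lineage-like cells had 0.394% and 0.170% thinned, with 1 carrier in each library, so these shares were near those of cells that should lack the genes. The thinned *Chodl* share was 1.73% (1.05 to 2.69) in intact and 0.327% (0.157 to 0.601) in callus cells, unthinned 1.98% and 0.594%. It was in 0 thinned B-lineage-like cells of either library, which allows shares of up to 1.18% and 0.510%. The callus share is below that limit, so the share alone does not separate it from background. *Des* or *Actc1* was in 5.93% (4.60 to 7.49) of intact and 5.10% (4.35 to 5.94) of callus cells after thinning and 10.0% and 11.4% before, against 0.394% and 2.55% of thinned B-lineage-like cells.

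In single cells the genes are described as a set of *Pax7*, *Myf5* and *Chodl* and a set of *Myog*, *Mymk* and *Actc1*. Of the 40 cells with *Pax7*, 29 also held *Myf5* and 35 held *Chodl*, and of the 31 with *Myf5*, 30 held *Chodl*. All of *Pax7*, *Myf5* and *Chodl* were in 28 cells, 18 intact and 10 callus. No cell with *Pax7*, *Myf5* or *Chodl* held *Myog*, *Mymk* or *Actc1*. Of the 28 pairs of genes, 9 were found together in 0 cells, and these are those 9. Each of these genes had few carriers among the 4579 cells, from 6 for *Mymk* to 132 for *Actc1*. Unrelated genes this rare would also share few or no cells, so the counts of 0 do not show exclusion. *Des* was in 32 of the 40 *Pax7* cells and 28 of the 31 *Myf5* cells, so the desmin transcript was shared by both ends of the sequence.

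*Myod1* was found with genes of both sets, as *Des* was. It was in 5 of the 40 *Pax7* cells, 4 of the 31 *Myf5* cells and 5 of the 15 *Myog* cells, and all 23 *Myod1* cells held *Des*. Of these 23, 16 had at least 5% of their UMIs from a list of 19 fibre genes, and their median share of mitochondrial UMIs was 0.0975%, against 2.89% in the other 7.

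**Figure D2:**
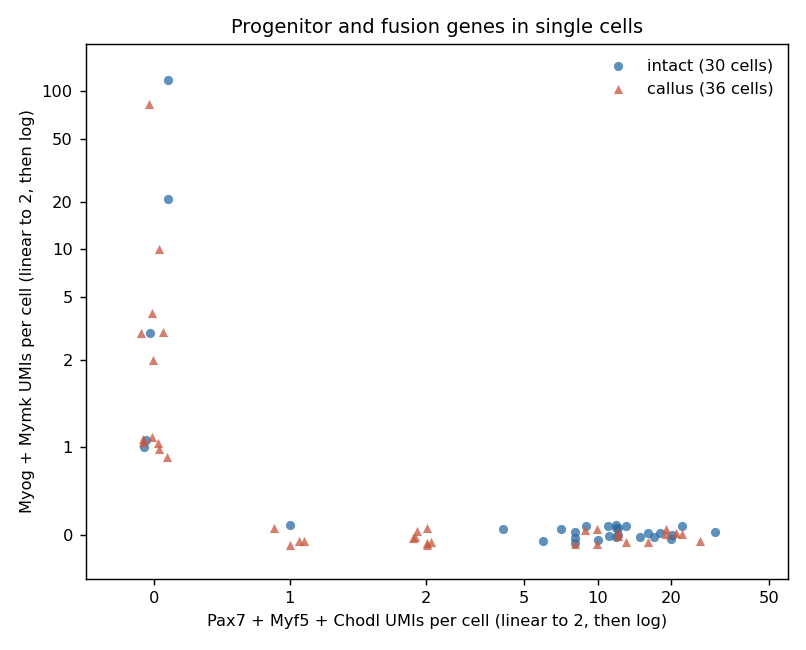
Sum of *Pax7*, *Myf5* and *Chodl* UMIs (horizontal) against the sum of *Myog* and *Mymk* UMIs (vertical) in each of the 66 cells with any of them, intact as circles and callus as triangles, with slight jitter. Every cell lies on an axis, so none holds genes of both sums, which for genes this rare does not show exclusion.

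Most of the progenitor signal sat in a small mixed cluster. Cells were clustered without the 8 genes into 29 clusters, named from markers that exclude them, and no cluster was myogenic-like. A cluster of 72 cells (28 intact, 44 callus), with *Acp5*, *Ctsk*, *Nppc* and *Acta2* among its leading genes and named osteoclast-like by the rule, held 281 of the 332 UMIs of *Pax7*, *Myf5* and *Myod1*, or 84.6%. Clustered again, it gave 6 sub-clusters. Sub-clusters A (23 cells) and C (5 cells) were myogenic-like, D (9 callus cells) mural-like, that is, with the markers of pericytes and vascular smooth muscle, and E and F (18 callus cells) osteoclast-like. Sub-cluster B (17 cells) stayed unnamed, with a mural score of 2.06 and a myogenic score of 1.82, each the mean log2 ratio of the markers over other clusters. D was led by *Rgs5*, *Myh11* and *Notch3* and also by *Dmp1* and *Mepe*, genes of osteocytes. In C, 3 of the 5 cells held *Myog* and *Mymk*. The remaining cells of C held none of the genes left out of the clustering, so the values of C for those genes rest on these 3 cells. This second step was added after the data were seen. With another seed, 44 of the 72 cells in 3 sub-clusters were myogenic-like and held 81.0% of the progenitor UMIs instead of 41.6%, and at the lower resolution none was.

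Sub-clusters A and B carried the satellite cell genes. In A, *Pax7* had 86 UMIs in 17 of 23 cells, *Myf5* 43 in 15 and *Chodl* 105 in 19. In B, *Pax7* had 87 in 13 of 17 cells, *Myf5* 36 in 12 and *Chodl* 83 in 13. *Myog*, *Mymk* and *Actc1* had 0 UMIs in all 40 cells. A and B differed in the smooth muscle genes *Acta2* and *Tagln*, at 169 (107 to 254) and 162 (101 to 245) CPM in A and 448 (330 to 594) and 476 (355 to 626) in B, but 14 of the 22 *Tagln* UMIs of A were in 1 cell. *Rgs5*, which marks pericytes, was at 0 in A and had 29 UMIs in 2 cells of B, 28 of them in 1 cell, against 369 UMIs in 5 cells of D. *Acta2*, *Tagln* and *Rgs5* were not among the genes left out of the clustering, so they could have shaped the split of A from B. *Tagln* was also a leading gene of B. The difference between A and B in these genes is therefore not independent of the split. B is mostly callus cells (11 of 17) and A mostly intact cells (19 of 23), so sub-cluster and library cannot be told apart in this difference either.

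The libraries differed in the share of such cells. A and B made up 25 of 1214 intact cells, or 2.06% (1.34 to 3.03), and 15 of 3365 callus cells, or 0.446% (0.250 to 0.734). Fibroblast-like cells also had a lower share in callus, with 291 intact and 239 callus cells. Haematopoietic progenitor-like cells went the other way, with 7 and 249. The shares are over all analysed cells, so fewer cells of A and B and more cells of other classes cannot be told apart. Within A and B, *Pax7* was at 686 CPM (561 to 830) in intact and 756 (587 to 959) in callus cells. *Chodl* was at 745 (614 to 895) and 823 (646 to 1033), and *Myf5* at 366 (276 to 475) and 256 (162 to 384). The intervals of each of these genes overlap between the libraries, so no difference per cell was detectable. The mixed cluster behind A and B was picked because it held most *Pax7*, *Myf5* and *Myod1* UMIs. Levels within A and B are therefore not independent of that choice. *Des* was at 1079 (875 to 1316) CPM in these callus cells against 405 (311 to 519) in the intact ones, with up to 23 UMIs in a cell. In A, 1 of 4 callus cells held 15 *Des* UMIs and 16 of 19 intact cells held 46. In B, 9 of 11 callus cells held 82 and 5 of 6 intact cells held 16. The intervals do not cover the spread between cells. As A is mostly intact and B mostly callus, sub-cluster and library are not fully told apart in *Des* either. *Acta2* was at 367 (253 to 515) and 248 (176 to 341) CPM in these callus and intact cells. *Clec3b*, whose locus drives the Cre, had 3 UMIs in the 40 cells.

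*Mki67*, a gene of cycling cells, had 2 UMIs in the 25 intact and 0 in the 15 callus cells of A and B. Among all carriers of *Pax7* or *Myf5*, 5 of 17 callus and 0 of 25 intact cells had at least 10 UMIs of the cell cycle list. None of those 5 was in A or B. They are a haematopoietic progenitor-like cell, a cell of D and 3 fibroblast-like cells with 435 to 1102 UMIs of the neutrophil list. The cell of D held 2 *Pax7*, 8 *Myf5*, 2 *Myod1* and 13 *Des* UMIs, 7 UMIs of the myogenic list, 1 of the mural list and 0 *Rgs5*, so its own values go against the name of D, and it was among the highest doublet scores.

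**Figure D3:**
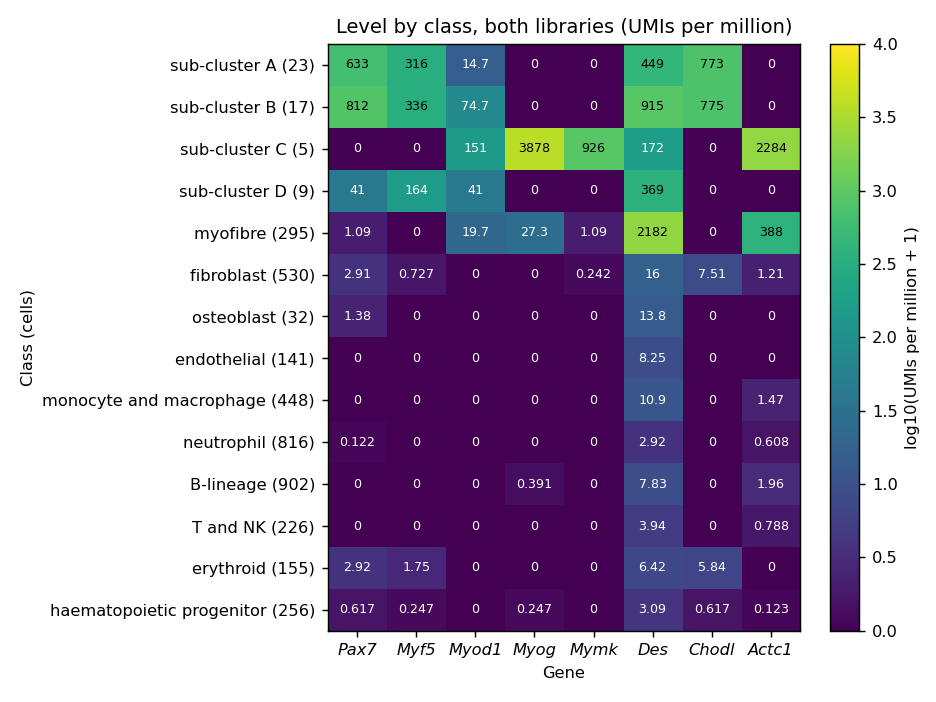
Level of each gene (columns) in classes of cells (rows, with the number of cells), both libraries summed, printed as UMIs per 1000000 and coloured on a log10 scale. *Pax7*, *Myf5* and *Chodl* peak in sub-clusters A and B, *Myog*, *Mymk* and *Actc1* in C, and *Des* in myofibre-like cells.

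Sub-cluster C held nearly all of the fusion signal. Of the 209 *Myog* UMIs in 15 cells, 180 (86.1%) were in 3 cells of C, and of the 47 *Mymk* UMIs, 43 (91.5%) were in the same 3. The richest, an intact cell of 18740 UMIs, had 99 *Myog*, 20 *Mymk*, 50 *Actc1* and 4 *Myod1* UMIs. The next, a callus cell of 18620 UMIs, had 62 *Myog*, 21 *Mymk*, 56 *Actc1* and 3 *Myod1* UMIs. The third, an intact cell of 5683 UMIs, had 19 *Myog* and 2 *Mymk* UMIs, 0 *Actc1* and 0.0176% mitochondrial UMIs.

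These 3 cells shared more than *Myog* and *Mymk*. *Cdkn1c*, which encodes the cell cycle inhibitor p57, had 333, 431 and 61 UMIs in them, and *Acta2* had 203, 72 and 13. *Mymx*, the other fusion protein of muscle, had 11 UMIs in the intact and 14 in the callus cell of highest *Myog*, 25 of the 26 in all analysed cells. The 3 cells held 0 UMIs of *Pax7*, *Myf5*, *Chodl* and *Clec3b*. The myosins of developing fibres were near 0, with 1 UMI of *Myh3* and 1 of *Myh8*, both in the callus cell. Skeletal actin, *Acta1*, had 43 UMIs in the 3 intact cells of C and 1 in the 2 callus cells, so the *Actc1* counts of 50 and 56 did not follow *Acta1*. All 3 cells were among the 12 intact and 91 callus cells of highest doublet score. They held 0 UMIs of the leukocyte gene *Ptprc* and of the B-lineage list, at most 1 of the fibroblast list, 6 of the neutrophil list and 15 of the erythroid list. The part of doublets in these values was not tested further.

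A 4th cell brings the share of *Myog* to 90.9%. It was a callus cell of 13259 UMIs in a myofibre-like cluster, with 10 *Myog*, 69 *Des*, 0 *Mymk* and 0 *Actc1* UMIs. The 12 cells after the first 3 held 29 *Myog* UMIs, 25 of them in 8 myofibre-like cells. The other 4 were B-lineage-like and haematopoietic progenitor-like cells with 1 UMI each. In the myofibre-like cluster of fast fibre genes, *Myog* was at 12.1 CPM (2.49 to 35.3) in 66 intact and 36.3 (22.7 to 54.9) in 215 callus cells, with intervals that overlap. Outside C, *Mymk* had 4 UMIs in 3 cells, with 1 or 2 in each.

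**Figure D4:**
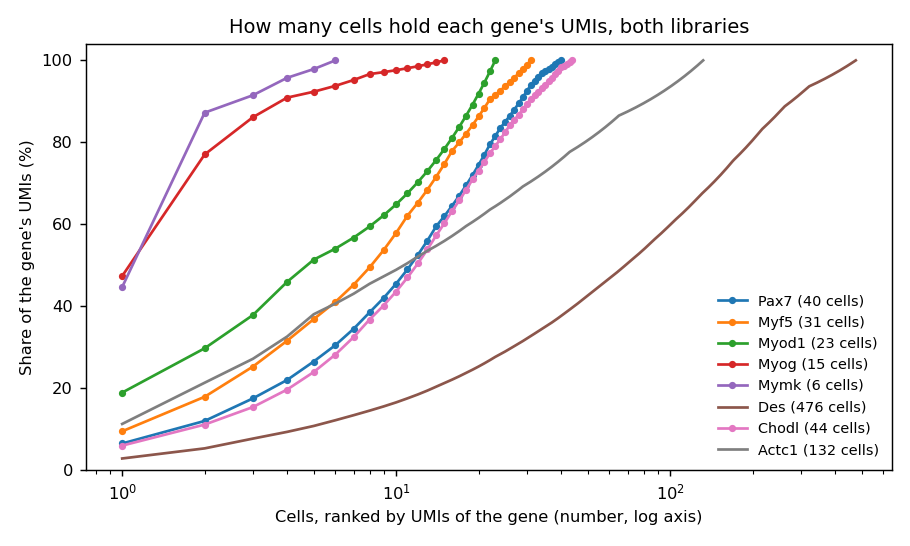
Cumulative share of each gene's UMIs (vertical, percent) held by the cells ranked by that gene (horizontal, log axis), both libraries together. *Mymk* and *Myog* reach over 86% within 3 cells, while *Pax7* and *Chodl* need 12 cells and *Des* 69 cells for 50%.

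*Chodl* was also seen outside A and B. Of its 44 carriers, 32 were in A and B, and 10 were fibroblast-like. In the fibroblast-like cluster led by *Mgp*, *Cilp* and *Thbs4*, 9 of 109 callus cells (8.26%, 3.85 to 15.1) had 23 *Chodl* UMIs. None of its 81 intact cells did (0%, 0 to 4.45), and the intervals overlap. Median depths were 8440 and 7414 UMIs. Over all fibroblast-like cells, thinned, the shares were 1.85% (0.507 to 4.67) of 216 callus and 0.377% (0.00955 to 2.08) of 265 intact cells, with intervals that overlap, and unthinned 3.77% and 0.344%. The highest of the 9 cells had 10 *Chodl* UMIs and no *Pax7* or *Myf5* at 24341 UMIs. *Chodl* without *Pax7* and *Myf5* occurred in 7 of 20 callus carriers and 0 of 24 intact carriers.

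The RNA of another cell type was present in some of the 9 cells. In 3 of them, all among the highest doublet scores, the neutrophil list had 1071, 1102 and 2412 UMIs, mitochondrial UMIs were 0 to 0.0231%, and *Chodl* had 1 or 2 UMIs. The other 6 had 3 to 5 neutrophil-list UMIs and 1 to 10 *Chodl* UMIs. The cell with 10 *Chodl* UMIs also held 12 *Ptprc* UMIs, 0 *Clec3b* and 1 *Pdgfra*, beside 529 of the fibroblast list, and the remaining 5 held 0 *Ptprc*.

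*Pax7* outside the mixed cluster came in 9 cells. An intact fibroblast-like cell held 9 *Pax7*, 3 *Myf5* and 8 *Chodl* UMIs beside 4 *Clec3b* and 8 *Pdgfra* UMIs, the latter a gene of fibroblasts. An intact erythroid-like cell held 5, 3 and 10 beside 7541 UMIs of the erythroid list. A callus haematopoietic progenitor-like cell of 49424 UMIs held 5, 2 and 5 beside 14253 neutrophil-list UMIs. The other 6 cells had 1 *Pax7* UMI each. So 3 cells carried *Pax7*, *Myf5* and *Chodl* together with the RNA of another cell type, and whether they are doublets was not tested.

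Most *Myod1* cells were fibre cells. The fast myofibre-like cluster held 17 of its 37 UMIs, in 4 of 66 intact cells (16.1 CPM, 4.39 to 41.3) and 11 of 215 callus cells (21.4 CPM, 11.4 to 36.6). The slow myofibre-like cluster, led by *Myl2*, *Tnnc1* and *Myl3*, had 1 more. The cell of highest *Myod1* was a callus cell of B with 7 *Myod1*, 11 *Pax7*, 1 *Myf5* and 14 *Des* UMIs. In A and B *Myod1* was at 6.53 CPM (0.165 to 36.4) in intact and 100 (45.8 to 190) in callus cells, the callus value resting on 9 UMIs in 3 cells, 7 of them in that cell.

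In several classes *Des* stood in a like ratio to fibre RNA. It was at 1974 CPM (1803 to 2156) in intact and 2103 (1989 to 2221) in callus cells of the fast cluster, and at 3862 (3379 to 4394) over the 14 cells of the slow cluster. Per 1000 UMIs of the fibre gene list, *Des* had 9.65 in myofibre-like, 10.4 in B-lineage-like, 8.79 in neutrophil-like and 10.8 in monocyte and macrophage-like cells. The ratio was alike across these classes, on 1996, 40, 24 and 37 *Des* UMIs, but some of these UMIs lay in a few cells rich in fibre RNA, such as a B-lineage-like cell with 8 *Des* UMIs and 4.66% fibre-list UMIs and a macrophage-like cell with 9 and 5.20%. The source of *Des* in these leukocytes was not tested.

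Other classes lay above that ratio. Fibroblast-like cells had 31.5 *Des* UMIs per 1000 fibre-list UMIs (68.4 in intact, 22.1 in callus), A had 1052 and B had 1719, the last 2 on 61 and 98 *Des* UMIs. D had 600 on 18 *Des* UMIs, but 13 of them were in the cell without mural markers. Osteoblast-like cells had 111 on 10 *Des* UMIs, C had 101 on 8, marrow stromal-like cells 22.2 on 3 and haematopoietic progenitor-like cells 19.2 on 25. In A and B *Des* was far above the ratio of the fibre cells.

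**Figure D5:**
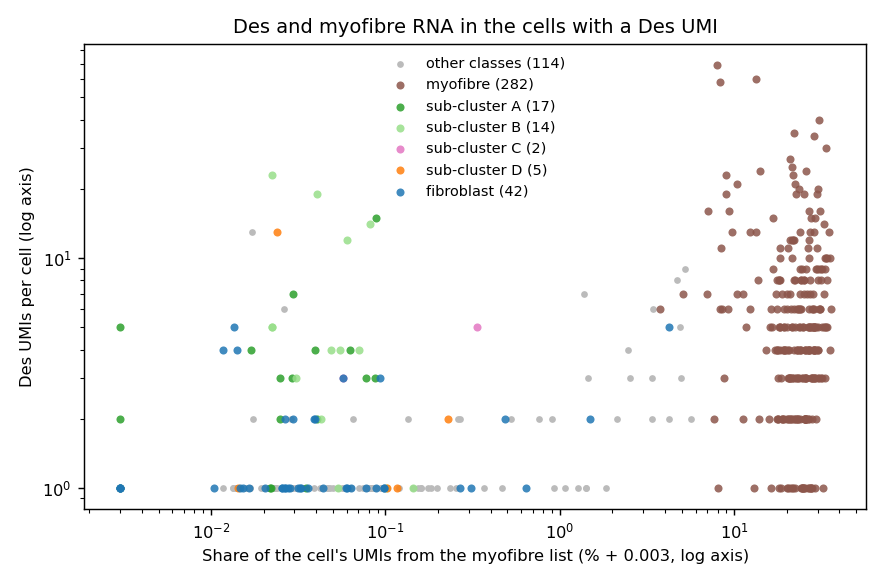
*Des* UMIs per cell (vertical, log axis) against the share of the cell's UMIs from the fibre gene list (horizontal, log axis, 0.003 added), for the 476 cells with a *Des* UMI, coloured by class. Sub-clusters A, B and D have *Des* at low fibre shares, apart from the 282 myofibre-like cells at high shares.

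*Actc1* had its fibre source and a second, small one. The fast cluster held 353 of its 497 UMIs in 97 cells, at 258 CPM (199 to 329) in 66 intact and 476 (423 to 534) in 215 callus cells. These intervals do not overlap, but they do not cover the spread between cells, and single cells held up to 12 intact and 29 callus UMIs. The shares of cells with *Actc1* were 31.8% (20.9 to 44.4) in intact and 35.3% (29.0 to 42.1) in callus, with intervals that overlap. *Des* differed little in the same cells. The slow cluster held 2 *Actc1* UMIs. The second source was the pair of C cells of highest *Myog*, with 106 UMIs (21.3%). The coding sequence of *Actc1* is close to that of *Acta1*, which was abundant in fibres, and how reads shared by both were counted is not given in the sources used here, so the fibre values of *Actc1* are uncertain.

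Other genes of the pathway were more often lower than higher in the callus library, against 13.5% and 8.81% of all genes tested. Of 16 satellite cell genes, 14 had at least 20 UMIs, with 8 at least 2-fold lower and 2 (*Hey1*, *Vcam1*) at least 2-fold higher in the callus library, and a median log2 ratio of −1.11. *Fgfr4*, a growth factor receptor, had −3.81, and *Chrdl2* had −3.10. Of 23 myocyte differentiation genes, 20 were tested, with 9 lower and 1 (*Arpp21*) higher, and a median of −0.85. Both lists hold genes used as myogenic markers, so their levels in the sub-clusters are no independent check of the names.

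In the 28 cells of A and C, the highest satellite cell genes were *Sdc4*, a heparan sulphate proteoglycan, at 812 CPM, *Spry1*, an inhibitor of growth factor signalling, at 269 and *Vcam1*, an adhesion molecule, at 230. B had 1933, 476 and 411 CPM of these 3. The highest myocyte genes were *Cdkn1c* at 4602, *Ttn*, the giant protein titin of the sarcomere, at 346 and *Jsrp1* at 219. A and C held 148 of the 2790 *Sdc4*, 49 of the 471 *Spry1* and 42 of the 1245 *Vcam1* UMIs of all analysed cells. For *Cdkn1c*, *Ttn* and *Jsrp1* they held 839 of 1923, 63 of 1890 and 40 of 645. So most UMIs of these 6 genes lay outside A and C. *Cdkn1c* had 833 UMIs in C and 6 in A, and *Sdc4* 3 in C and 145 in A, while *Jsrp1* had 20 in each. Within C, the *Ttn* UMIs were in 2 cells and those of *Jsrp1* in 3, while all 5 cells held *Cdkn1c*. *Megf10*, a satellite cell gene, was at 215 CPM in C and 103 in A, on 10 and 14 UMIs. *Pax3*, a relative of *Pax7*, had 0 UMIs in A, B and C. *Calcr*, the calcitonin receptor of quiescent satellite cells, had 8 in A and 7 in B, of 18 in all analysed cells.

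The genes most alike in pattern, by the cosine of UMIs per 10000 over all 4579 cells and among 14828 genes, differed among the 8. For *Pax7* they included *Fgfr4* (0.67) and *Edn3* (0.62), and for *Chodl* they included *Fgfr4* (0.63) and *Nppc* (0.59). *Myf5* had *Garem1* (0.65), *Chrdl2* (0.61) and *Prox1* (0.60). *Myog* had *Cdkn1c* (0.85), *Acta2* (0.80) and *Mymx* (0.76), and *Mymk* had *Cdkn1c* (0.91), *Mymx* (0.90) and *Pnmal2* (0.85), all of which rest on the cells of C. *Des* had *Acta1* (0.84), *Tpm2* (0.79) and *Tcap* (0.77), and *Actc1* had *Myl1* (0.53), *Mylpf* (0.52) and *Tpm1* (0.52), all fibre genes. For *Myod1*, on 37 UMIs in 23 cells, the highest cosine was 0.29, with *Rbm24*. Between the 8 genes the cosine was 0.90 for *Myog* and *Mymk*, 0.83 for *Pax7* and *Chodl*, and 0 for *Pax7* and *Myog*.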

How the data were processed

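UMI counts per gene and cell were deposited by the authors as Cell Ranger output (version 6.0.0 in the file header, build mm10 in the submitters' notes), without normalization, for 2 libraries. 32158 of 32285 gene IDs (99.6%) are in GENCODE M21, GRCm38. Barcodes with at least 500 genes were kept, with no limit on mitochondrial UMIs and no doublet removal, because Scrublet called 0.131% of 4579 cells and so had not worked. Levels are summed UMIs per 1000000 with exact Poisson intervals, and shares have Clopper-Pearson intervals (95%), counting error only. A count of 0 is given a limit of 3 counts. Shares were also thinned to 2000 UMIs (seed 0). Cells were scaled to 10000 UMIs, log-transformed and clustered (2000 variable genes without the 8, 30 components, 15 neighbours, Leiden resolution 1). A name needed a marker score of at least 0.5 (mean log2 ratio with 10 CPM added), at least 3 detected markers and, a limit set after clusters were seen, a lead of 0.5. The 72-cell cluster was clustered again after the data were seen. The members and lists were chosen with earlier results of these data known. Named genes are the 8, the 3 of highest cosine for each, and the 3 of highest level in myogenic-like cells from each pathway list, except for an item that is not reported here. *Hey1*, *Arpp21* and others were named after their values were seen. In simulated data, thinned counts were 1.00 of the expectation over 9917 genes. Genes planted with a like pattern in 40 cells at a mean of 2 UMIs were recovered at 100% over 14835 genes. *Myod1*, *Myog* and *Mymk* had fewer carriers than that, so recovery was not tested for genes this sparse. Clustering and doublet scores used scanpy 1.11.5 with igraph 0.11.9, intervals used scipy 1.17.1, under python 3.11.15. Alternatives changed the gene minimum, thinning depth, carrier definition, fibre cells, doublet scores and clustering.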

Additional observations from a re-analysis of the deposited data

Results flagged for a closer look

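Barcodes with fewer than 500 genes, 658 in the intact and 622 in the callus library, were left out of every comparison, and some of the 8 genes lay in them above 3 counts. They held 152 *Des* and 38 *Actc1* UMIs in the intact library and 418 *Des*, 100 *Actc1* and 4 *Myod1* UMIs in the callus library. The fibre gene list was at 3609 CPM in these intact barcodes and at 21806 CPM in the callus ones. Their *Des* level was 33.2 CPM (28.1 to 38.9) in the intact and 191 CPM (173 to 210) in the callus library. This order of the libraries is the opposite of that in the analysed cells. The left-out barcodes were unlike in depth, with a median of 8186.5 UMIs in the intact and 997 in the callus library. They held 4583330 and 2188652 UMIs. The opposite order therefore cannot be read as a reversal of *Des* in like barcodes, and its cause was not tested. *Pax7*, *Myf5* and *Mymk* had 0 UMIs in the left-out barcodes.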

How the results depend on the processing

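Of 191 alternative values, 148 stayed within the counting interval or within 1.5 times the main count, and 43 moved, none of them a test. With the highest doublet scores left out, *Myog* and *Mymk* were at 0.681 (intact) and 0.814 CPM (callus), their shared cells went from 4 to 1, and genes at least 2-fold lower from 5 to 3. With the richest cell left out they were at 3.46 and 0.811 CPM, and *Des* and *Actc1* at 103 CPM in intact. For single genes, an alternative chosen after seeing the data, the richest cell moved 7 of 16 levels, those of *Myog*, *Mymk* and *Actc1* in both libraries and *Des* in intact (87.1 CPM). Without cells of at least 5% fibre RNA, *Myog* and *Mymk* in callus were at 2.60 CPM and 0.101% of cells, *Des* and *Actc1* at 22.6 and 12.0 CPM and 2.27% and 1.93%, and *Myod1* with *Des* in 7 cells instead of 23. At least 200 genes gave 125 and 73.3 CPM for *Des* and *Actc1*, and at least 1000 genes 84.3 and 35.8 CPM and 4.51% and 3.49%. Thinning to 1000 UMIs gave 1.17% of intact cells with progenitor genes and 7.31% of callus cells with *Des* or *Actc1*. Unthinned, callus progenitor shares were 0.862%, and *Des* or *Actc1* 10.0% and 11.4%. Requiring 2 UMIs gave progenitor shares of 1.37% and 0.131%, *Myog* or *Mymk* 0.0654% in callus, *Des* or *Actc1* 4.47% and 3.27%, *Chodl* 1.00% and 0.131%, and *Myod1* with *Des* in 5 cells. The share of progenitor UMIs in myogenic-like clusters was 0% in the main clustering and 41.6% after clustering again, 81.0% with another seed and 41.6% with no lead needed, alternatives chosen after seeing the data. Fewer cells or UMIs enter by construction, and otherwise the cause was not tested. In 0 alternatives was any of the 8 genes at least 2-fold higher in callus. No paired analysis was possible because each condition has 1 library and the results come from no test. With 1 library per condition, mouse-to-mouse spread is not measured, and *Myod1*, *Mymk* and shares under about 0.5% rest on few UMIs.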
